A study of Mus musculus with 14 samples.

Results

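CLIK148, an inhibitor of cathepsin L, was given on its own to mouse dendritic cells, and the 2 arrays of these cells were compared with the 2 arrays of cells given the solvent DMSO alone. The 4 arrays, of 14 in the series, were chosen by their titles (CLIK148 or DMSO before culture with no further stimulus) and paired by biological replicate number. The cells were dendritic cells that grew out of BALB/c bone marrow progenitors over 8 days in recombinant granulocyte-macrophage colony-stimulating factor (GM-CSF), with feeding on days 3 and 6. They received 5 µM CLIK148 or an equal volume of DMSO (0.01%) for 1 h, and nothing was added afterwards. Other groups used below received 5 µM of the cathepsin B inhibitor CA074Me and no stimulus, or DMSO or CLIK148 for 1 h followed by CpG oligonucleotide at 25 µg/mL. The other 4 arrays, which enter only where all 14 are named, had DMSO or CA074Me followed by tumour necrosis factor (TNF) at 500 U/mL. The labels give no genotype beyond the strain, no age or number of mice, and no time from treatment to RNA isolation. The whole set of 7 groups was made in 2 independent experiments, and replicates 1 and 2 are called experiments 1 and 2.

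Cathepsin L is a lysosomal cysteine protease. Like its relatives cathepsins B and S it breaks down proteins in the endosomes and lysosomes of antigen-presenting cells, and it can trim the invariant chain that guards the groove of MHC class II molecules. Its natural inhibitors are the cystatins. The series asked how cathepsin inhibitors alter signals tied to T helper 1 (Th1) and T helper 2 (Th2) mediators, and the unstimulated CLIK148 cultures were among its controls. An inhibitor of the enzyme need not alter the enzyme's mRNA, and the arrays measured mRNA only.

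No gene passed the test between CLIK148 and solvent in the fit that also held the 2 CA074Me arrays, and 22 did in a fit to the 4 compared arrays alone, described further on. In the 6-array fit, of 12172 genes bright enough to test, 0 (0%) had an adjusted p under 0.05 in limma, and 271 (2.23%) had an unadjusted p under 0.05, where unchanged groups would give about 5%. Differences on the log2 scale, on which 1 is a doubling, ran from -0.37 for the matrix gene Fn1 to 0.42 for Tnnt2, with a median of -0.0137 and a standard deviation (SD) of 0.0626. The 95% confidence interval of a gene reached a median of 0.141 log2 to either side, and for 12169 genes it lay wholly inside a 1.5-fold change in either direction. With the experiment left out of the fit that number was 10687, and with all 14 arrays and no experiment term it was 9683. The smallest adjusted p was 0.999.

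The experiments shared little of the small differences that were there. CLIK148 minus solvent had an SD over genes of 0.0977 log2 in the first experiment and 0.0742 in the second. Over the 12172 genes, which are not independent of each other, the differences of the 2 experiments correlated with r = 0.0437. The difference was above 0 in both experiments for 2322 genes, below 0 in both for 3610, and of opposite sign for 6240. It exceeded 0.2 log2 in both experiments for 2 genes on the high side and 3 on the low side, and 9 genes differed by over 0.3 log2 on average.

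**Figure D1:**
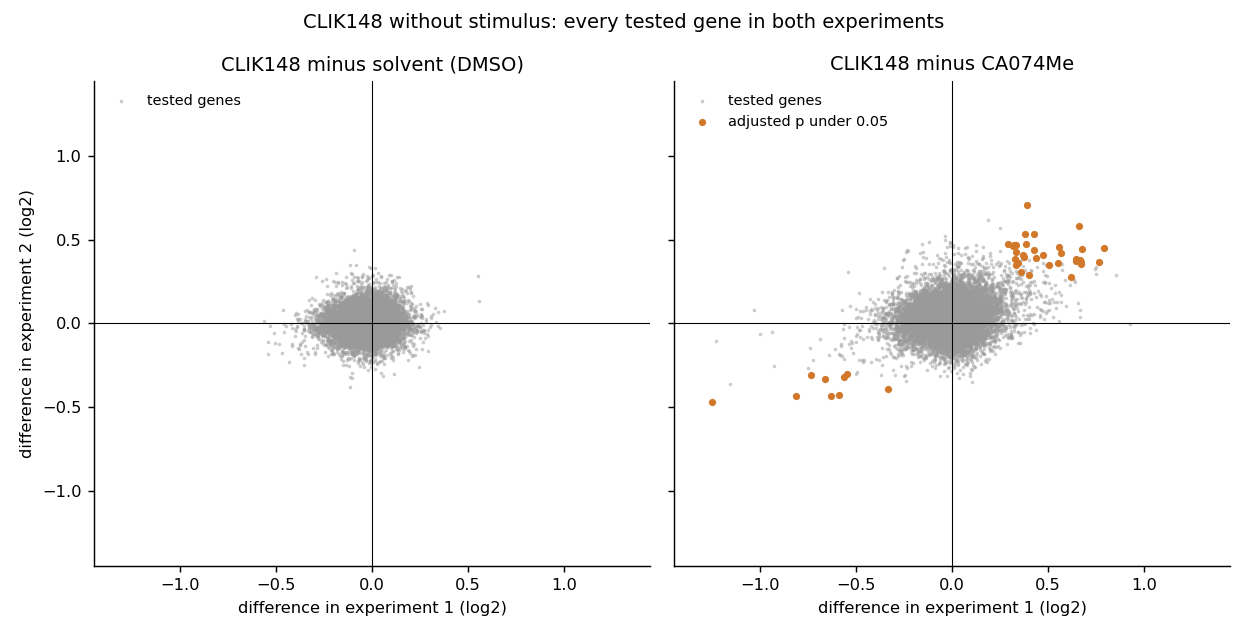
Each point is 1 of 12172 tested genes, placed by its log2 difference in experiment 1 (horizontal) and experiment 2 (vertical), for CLIK148 minus solvent (left) and CLIK148 minus the cathepsin B inhibitor CA074Me (right). The left cloud stays close to 0 in both directions, and the right panel shows the 42 genes with adjusted p under 0.05 in orange, lying in the upper right and lower left corners.

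The experiment was the main difference between the arrays. Array medians lay between 7.48 and 7.54 log2, and the 3' minus 5' difference of the Gapdh control probe sets between -0.060 and 0.030. The same difference for Actb, a sign of RNA quality, was 0.265 and 0.273 in DMSO and 0.318 and 0.297 in CLIK148, and 0.184 and 0.205 in DMSO plus CpG and 0.229 and 0.268 in CLIK148 plus CpG, so it was higher with CLIK148 in both experiments of both settings. Its part in the results was not tested. Within an experiment the DMSO and CLIK148 arrays correlated with r = 0.998 and 0.999 over the tested genes, while the experiments correlated with 0.984 for DMSO and 0.985 for CLIK148. The first principal component of the 6 unstimulated arrays, with 82.6% of the variance, separated the experiments. The markers of conventional dendritic cells averaged 10.68 and 10.60 log2 in DMSO and 10.63 and 10.59 in CLIK148 over 13 genes, and Itgax, which encodes CD11c, read 12.08 and 11.21 in DMSO and 11.85 and 11.23 in CLIK148. Macrophage markers such as Adgre1 and Csf1r and granulocyte markers such as S100a8 and Mpo were also well above the array median of 7.52.

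The gene of the targeted enzyme lay within 0.05 log2 of solvent in both experiments. Ctsl (chromosome 13) stood at 13.36 log2 in DMSO and 13.31 in CLIK148 in experiment 1, and at 13.78 and 13.82 in experiment 2. Its difference of -0.002 ± 0.070 log2 (standard error, SE; n = 2 arrays per group; limma adjusted p = 0.999) had a 95% interval from -0.16 to 0.15. The inhibited protein is not measured by its mRNA, so this value checks no label.

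No other cysteine cathepsin gene passed the test. Ctsb, the gene of the lysosomal protease that CA074Me inhibits, was at 13.69 and 13.43 in DMSO and 13.47 and 13.44 in CLIK148, a difference of -0.22 log2 in experiment 1 and 0.01 in experiment 2. Ctss, whose protease completes invariant chain removal in dendritic cells, was at 14.98 and 14.76 in DMSO and 14.87 and 14.76 in CLIK148. For both genes the CLIK148 values overlapped those of DMSO. Of the 11 tested genes for cysteine cathepsins and the asparaginyl protease legumain, 0 passed the test, the median was -0.032, the range was -0.104 (Ctsb) to -0.001, and all 11 intervals lay inside 1.5-fold. Ctsf, Ctss and Lgmn were below 0 in both experiments, no member was above 0 in both, and the other 8 had opposite signs.

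**Figure D2:**
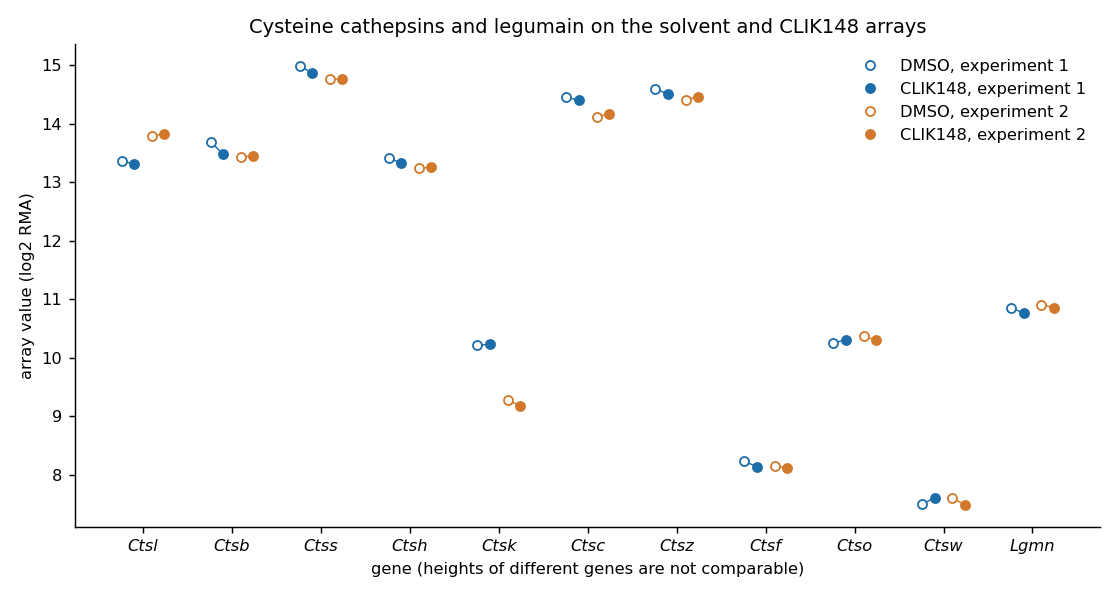
Array values (log2 RMA) of the 11 cysteine cathepsin and legumain genes, with open circles for DMSO and filled circles for CLIK148, blue for experiment 1 and orange for experiment 2, and a line joining the arrays of 1 experiment. The lines are short and mostly flat, while for Ctsl, Ctsk and Ctsc the colours are further apart than the circles they join.

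Cathepsin inhibitors and the aspartic and serine proteases of lysosomes did not pass either. Cst3, which encodes cystatin C, was at 15.12 in both DMSO arrays and at 14.98 and 15.15 in CLIK148, with an interval from -0.20 to 0.09. Ctla2a, the gene of a mouse protein that resembles a cathepsin propeptide and inhibits cathepsin L, read 9.23 and 9.78 in DMSO and 9.28 and 10.07 in CLIK148, a difference of 0.17 log2 (interval -0.01 to 0.34). Both of its CLIK148 values exceeded the DMSO value of their own experiment, by 0.05 and 0.29. The median of the 12 tested inhibitor genes was 0.025, with 5 above 0 in both experiments and 1 below. Ctsd, the gene of the aspartic cathepsin D, read 13.16 and 13.04 in DMSO and 12.98 and 13.00 in CLIK148, and the 8 proteases of its list had a median of -0.045. The neutrophil serine protease gene Ctsg differed by -0.08 and 0.28 log2 and the protease inhibitor gene Serpinb1a by -0.05 and 0.28, and the granulocyte marker list moved with them (medians -0.113 and 0.184 in experiments 1 and 2). The part of granulocyte RNA in these values was not tested.

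No gene of the lysosome or of antigen presentation passed. Over 24 tested genes for lysosomal membrane proteins, hydrolases and proton pump subunits the median was -0.031 log2, 0 passed, and every interval lay inside 1.5-fold. The member furthest from 0 was Man2b1, a lysosomal mannosidase gene, at 13.62 and 13.33 in DMSO and 13.41 and 13.25 in CLIK148 (-0.14, interval -0.29 to 0.001). Mcoln1, which encodes a lysosomal calcium channel, was lower by 0.27 log2 in experiment 1 and level in experiment 2, at 9.74 and 9.75. The 19 autophagy genes had a median of -0.031, with Atg9a at -0.12 and Uvrag at -0.11.

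Among 12 tested MHC class II genes 0 passed, 4 were below 0 in both experiments and 1 above, and the median was -0.046 (-0.121 and 0.017 by experiment). Ciita, the master regulator of class II transcription, was at 10.98 and 11.06 in DMSO and 10.72 and 10.99 in CLIK148, so that both differences were negative. Its interval ran from -0.31 to -0.02 and its limma adjusted p was 0.999. Cd74, the invariant chain gene, was at 14.36 and 14.13 in DMSO and at 14.14 in both CLIK148 arrays. The 12 class I genes had a median of -0.040, with the peptide transporter gene Tap2 at -0.28 and -0.02 in the 2 experiments. The 25 proteasome subunit genes had a median of -0.010, and the 2 furthest from 0 were Psmb7 at -0.16 and Psmb4 at 0.09.

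The Th1 and Th2 mediators of the series' title did not pass either. Il12b, the gene of the p40 chain of the Th1-driving cytokine IL-12, read 9.82 and 11.11 in DMSO and 10.03 and 10.98 in CLIK148, higher in experiment 1 and lower in experiment 2. Il12a, the gene of the p35 chain, read 7.19 and 7.97 in DMSO and 7.35 and 7.98 in CLIK148 (interval -0.06 to 0.23). Over the 19 tested Th1-associated genes the median was -0.002, 5 were above 0 in both experiments, 6 below, and 0 passed. Cxcl10, which encodes a chemokine that draws Th1 cells, was 0.02 and 0.27 log2 higher, and Il15 was lower by 0.18 and 0.10.

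On the Th2 side the chemokine genes Ccl17 and Ccl22, whose products bind CCR4, were at 14.51 and 14.34, and at 13.74 and 13.91, in DMSO. In CLIK148 they were at 14.40 and 14.36, and at 13.64 and 13.84. Ccl22 was thus lower in both experiments, by 0.10 and 0.07, with an interval from -0.21 to 0.05. Tnfsf4, the OX40 ligand gene, was 0.05 and 0.07 lower. The Notch ligand genes Jag1, Jag2 and Dll4 differed by 0.07, -0.04 and 0.001. Dll4 was dim on the DMSO and CLIK148 arrays, between 7.27 and 7.39, below the array median of 7.52. Over 18 tested Th2-associated genes the median was -0.034, 2 were above 0 in both experiments and 7 below, and 0 passed.

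No costimulation or cytokine gene passed. Cd40 was at 11.17 and 11.01 in DMSO and 11.24 and 11.14 in CLIK148 (0.10, interval -0.11 to 0.31). Cd80 was lower by 0.07 and 0.10, and Cd86 was at 11.65 and 12.95 in DMSO and 11.70 and 12.95 in CLIK148. The step between experiments was larger than either difference for Cd80 and Cd86. The median of the 24 maturation and costimulation genes was -0.012, and of the 16 inflammatory cytokine and growth factor genes -0.008. Il6 differed by -0.05, Tnf by 0.04 and Il10 by -0.004 log2, and Il10 was dim on all 4 arrays, between 6.95 and 7.00. Csf1, the gene of macrophage colony-stimulating factor, was lower by 0.21 and 0.11. Among 26 chemokine genes the median was 0.020 and 0 passed; the intervals of the neutrophil-attracting Cxcl3 (0.22, interval -0.28 to 0.72) and Ppbp (0.18, interval -0.28 to 0.64) were the 2 among the list members that reached past 1.5-fold.

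No gene of the stress programmes passed. NRF2 is a transcription factor that oxidants and electrophiles release to act on antioxidant genes, HIF-1 is the factor stabilised in hypoxia, and ATF4 responds to amino acid shortage and unfolded proteins. Over 21 tested glutathione and thioredoxin genes the median was 0.019 log2, over 24 NRF2-linked genes for heme, iron, quinone and efflux proteins -0.015, over 28 ATF4 genes 0.006, over 19 heat shock genes 0.012 and over 21 unfolded protein genes 0.008. Hmox1, which encodes the heme-degrading enzyme heme oxygenase 1, was at 10.95 in both CLIK148 arrays, 0.05 above and 0.05 below the DMSO array of its experiment, with an interval from -0.15 to 0.15. Nqo1, a quinone reductase gene, was 0.01 and 0.19 higher, with an interval from -0.23 to 0.43. The epoxide hydrolase gene Ephx1 was at 10.77 and 9.47 in DMSO and 10.58 and 9.30 in CLIK148, lower by 0.18 and 0.17, and the amino acid transporter gene Slc1a5 was lower by 0.19 and 0.11. Their intervals lay below 0, from -0.31 to -0.04 and from -0.28 to -0.02, and neither passed adjustment.

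Cholesterol synthesis stood highest of the 30 pathway lists. The list holds genes of enzymes on the way from acetyl-CoA to cholesterol, and regulators such as Insig1 and Srebf2, the SREBP2 gene. SREBP2 switches on the synthesis genes when membranes lack sterol. Of 20 tested members 14 were above 0 in both experiments, 0 below in both and 6 of opposite sign. Over all tested genes 19.1% were above 0 in both and 29.7% below in both. The list median was 0.098 log2 (0.047 and 0.126 by experiment) beside -0.0137 over all genes. Under CpG the list median was -0.041 (-0.045 and 0.014), beside -0.0296 over all genes. There 1 member was above 0 in both experiments and 5 were below in both, and the same shares of all tested genes were not counted. Without stimulus no member passed the test, and the median ran from 0.030 without the DMSO array of experiment 2 to 0.189 without that of experiment 1. Lss, the lanosterol synthase gene, was at 9.78 and 9.62 in DMSO and 9.89 and 9.85 in CLIK148, and Cyp51, which encodes the next enzyme, at 10.99 and 10.88 and at 11.07 and 11.15. Idi1 was higher by 0.14 and 0.13, Insig1, a sterol sensor gene, by 0.15 and 0.14, and Hsd17b7 by 0.16 and 0.18. Hmgcs1, the HMG-CoA synthase gene, was at 13.15 and 13.17 in DMSO and 13.22 and 13.28 in CLIK148. The lowest member of the list stood at -0.075 log2 on average. Spring1, which encodes a Golgi protein needed for SREBP activity, was not on the list and was 0.20 and 0.18 higher. It was among the 12 genes picked on these arrays for their rise in both experiments, so it adds no separate support. Under CpG its differences were -0.03 and -0.08.

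The Hmgcs1 promoter is shown because that gene encodes an early enzyme of the pathway and was the 1 of 16 members with a promoter entry that held the searched sterol regulatory element, TCACNCCAC on either strand. The stretch is 300 bases of RefSeq sequence, build GRCm38.p6, from 250 before to 50 after the annotated start, chr13:119690101-119690400 on the plus strand, with the match in capitals. The same letters occur in 1.24% of 32851 promoter windows.
Hmgcs1: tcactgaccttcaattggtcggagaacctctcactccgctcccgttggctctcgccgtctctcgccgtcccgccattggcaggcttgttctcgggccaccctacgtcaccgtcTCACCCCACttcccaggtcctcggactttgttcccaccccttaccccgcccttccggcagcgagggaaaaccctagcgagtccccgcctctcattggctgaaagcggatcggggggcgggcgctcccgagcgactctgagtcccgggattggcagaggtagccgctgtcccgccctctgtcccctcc
The match is a description of the sequence and does not show that a factor was bound.

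The remaining pathway lists had medians between -0.062 and 0.004. Lowest was cholesterol ester breakdown and efflux, 12 genes, with Lipe, the hormone-sensitive lipase gene, at 8.77 and 9.16 in DMSO and 8.54 and 8.97 in CLIK148. Interferon-stimulated genes had a median of -0.087 in experiment 1 and 0.094 in experiment 2 (25 genes), and glycolysis and hypoxia genes -0.078 and 0.089 (20 genes), so neither kept a sign. Mrc1, the mannose receptor gene and a marker of alternative activation, was at 11.68 and 9.01 in DMSO and 11.56 and 8.62 in CLIK148, lower by 0.11 and 0.38 (interval -0.41 to -0.09). Clec5a, a myeloid lectin receptor gene, was higher by 0.09 and 0.29. Across the 36 lists, 588 distinct genes were tested, 0 passed, 10 had an unadjusted p under 0.05, and the intervals of 586 lay inside 1.5-fold.

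**Figure D3:**
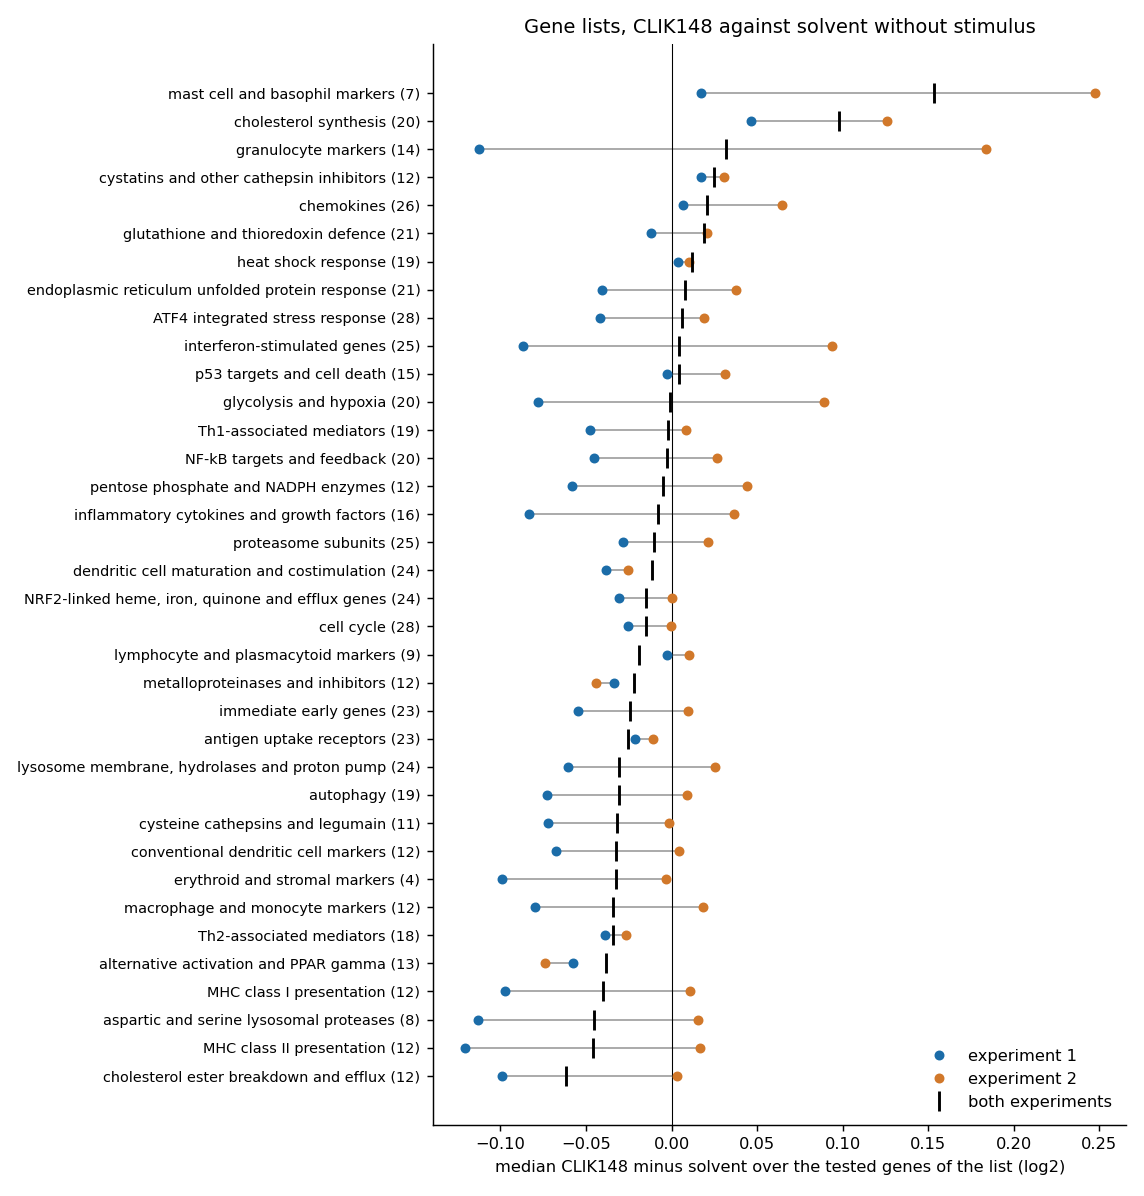
Median log2 difference of CLIK148 minus solvent over the tested genes of each of 36 lists (number of genes in parentheses), in experiment 1 (blue), experiment 2 (orange) and both (black tick). All black ticks but that of the mast cell and basophil markers, at 0.153, lie within 0.1 of 0, and for many lists the experiments fall on opposite sides.

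Markers of other cell types showed where experiment 2 differed. The 7 tested mast cell and basophil markers had a median of 0.153 log2, 0.017 in experiment 1 and 0.247 in experiment 2, and -0.012 when the CLIK148 array of experiment 2 was left out. Cpa3, a mast cell carboxypeptidase gene, was at 10.31 and 10.80 in DMSO and 10.45 and 11.08 in CLIK148, and Mcpt8, a basophil protease gene, at 10.69 and 10.51 and at 10.71 and 10.83. Kit went the other way, 0.30 and 0.04 lower. Mcpt4, Cma1 and Tpsb2, which define mature mast cells, were under the brightness needed for testing. Over the 10 markers on the array the mean level was 8.88 and 8.96 in DMSO and 8.85 and 9.11 in CLIK148. In bulk RNA fewer cells of a type and less RNA per cell cannot be told apart.

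Granulocyte markers split by experiment. The mean of 14 markers was 11.60 and 11.24 log2 in DMSO and 11.50 and 11.43 in CLIK148, so the inhibitor array was the lower in experiment 1 and the higher in experiment 2. Prg2, an eosinophil granule gene, was at 12.50 and 10.03 in DMSO and 12.41 and 10.47 in CLIK148, and Prtn3, a neutrophil granule protease gene, at 11.24 and 11.68 and at 11.12 and 12.02. The 12 conventional dendritic cell markers tested had a median of -0.032, and the 12 macrophage and monocyte markers one of -0.034, with the complement gene C1qc at -0.15 and -0.13. Lymphocyte and plasmacytoid markers had a median of -0.019 over 9 genes. Of 13 such markers on the array 9 were bright enough to test, among them the B cell genes Ms4a1, at 7.21 and 8.30 in DMSO and 7.21 and 8.09 in CLIK148, and Cd79b, at 7.54 and 8.43 and at 7.65 and 8.44. Xcr1, a marker of the cross-presenting subset, the other B cell genes Cd79a and Pax5, and Hba-a1 of red cells were all at or under 7.37 log2 on the DMSO and CLIK148 arrays, below the median of 7.52.

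The genes furthest from 0 in both experiments are given as values, since none passed the test and their sign in both experiments was how they were picked. The 12 high genes were Tnnt2, Clec1b, Grap2, Coch, Zfp202, Cd55, Klrb1b, Spring1, Pik3cd, Vcam1, Ppp2r5e and Rabep1. Tnnt2 (chromosome 1), which encodes cardiac troponin T, was at 7.20 and 7.29 in DMSO and 7.75 and 7.57 in CLIK148, a difference of 0.42 log2 (interval 0.26 to 0.58, limma adjusted p = 0.999). It was dim in solvent, below the array median. Clec1b, the gene of the lectin receptor CLEC-2, was 0.20 and 0.22 higher. Cd55, which encodes a complement decay factor, was at 7.43 and 7.39 in DMSO and 7.62 and 7.61 in CLIK148. Pik3cd, the gene of the leukocyte PI3 kinase subunit p110 delta, was well above the array median, at 13.09 and 13.02 in DMSO and 13.27 and 13.22 in CLIK148. Grap2 encodes an adaptor of immune receptor signalling, Klrb1b an inhibitory receptor of natural killer cells, Rabep1 an effector of the endosomal GTPase Rab5, and Vcam1 an adhesion molecule; all 4 were 0.16 to 0.20 higher on average.

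The 12 low genes were Marf1, Prrc2c, Cbx5, Lipe, Fn1, Kcnq1ot1, Ttll3, Kat6a, ND5, Hebp2, Akt1s1 and Gm13238. Fn1, the fibronectin gene, was at 13.39 and 9.06 in DMSO and 12.84 and 8.87 in CLIK148. The experiments thus differed by far more than the treatments did. Prrc2c, which encodes an RNA-binding protein, was at 11.50 and 11.80 in DMSO and 11.07 and 11.57 in CLIK148 (-0.33, interval -0.49 to -0.17). Marf1, a ribonuclease gene, was lower by 0.36 and 0.25, and Cbx5, the gene of heterochromatin protein 1 alpha, by 0.36 and 0.21. Kcnq1ot1 is a long noncoding RNA of an imprinted cluster and Kat6a a histone acetyltransferase gene; they were lower by 0.28 and 0.26 on average. ND5, a mitochondrial genome gene for a subunit of complex I, was at 13.57 and 13.42 in DMSO and 13.27 and 13.23 in CLIK148. Akt1s1, the gene of an mTORC1 inhibitor, was lower by 0.20 and 0.18.

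A fit to the 4 compared arrays alone called 22 genes, 2 higher (Tnnt2 and Rpl27a) and 20 lower, where the fit with the CA074Me arrays called 0. In that fit each of the 22 had the same SE of 0.0642 log2. The moderation had put a spread pooled over genes in place of each gene's own. Calls there followed the size of the mean difference, and disagreement between the experiments for a gene did not enter. The 20 lower genes included Fn1 (limma adjusted p = 8.05e-05), Prrc2c, Mycbp2, Ubr4, Tnrc6b, Zfhx3, Kmt2d, Lrp1, Dync1h1, Ahnak, Dst and Huwe1. Their median gene span was 75.9 kb and that of the 12 low genes 36.8 kb, beside 22.2 kb over all tested genes. Across 12126 genes with a known span, which are not independent replicates, the log10 span and the difference correlated with r = -0.040 in experiment 1 and -0.062 in experiment 2. All 20 were further from solvent in experiment 1 than in experiment 2. The Actb 3' minus 5' difference of CLIK148 was also further from that of DMSO in experiment 1. In CA074Me that difference was 0.264 and 0.312, beside 0.265 and 0.273 in DMSO. Its part in these values was not tested. Mycbp2 was lower by 0.54 and 0.11, Ubr4 by 0.51 and 0.12 and Dync1h1 by 0.53 and 0.02. Lrp1 was lower by 0.56 in experiment 1 and 0.01 higher in experiment 2. The CA074Me arrays share the DMSO arrays with this comparison, and CA074Me minus solvent was -0.40 in both experiments for Fn1, -0.23 and -0.30 for Mycbp2, and -0.20 and -0.24 for Ubr4. Of the 20 lower genes 18 were also below solvent in both experiments with CA074Me. Over the 20 the median of CA074Me minus solvent was -0.302 log2 and that of CLIK148 minus CA074Me 0.017. The 20 were picked as lower than these same DMSO arrays, so a high DMSO value would place both inhibitors below solvent. The share of all tested genes below solvent in both experiments with CA074Me was not counted. These values therefore do not show whether the fall was particular to CLIK148. Leaving out the CLIK148 array of experiment 2 from the 6-array fit gave 7 calls, 1 higher and 6 lower.

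CLIK148 and CA074Me were compared at the same dose, 5 µM, and after the same 1 h of pretreatment; the labels do not give the time to RNA isolation. In the fit with the experiment as a block 42 of 12172 genes (0.345%) differed between them at adjusted p under 0.05, 33 higher in CLIK148 (0.271%) and 9 lower (0.0739%), and 1224 genes (10.1%) had an unadjusted p under 0.05. All 42 had the same sign in both experiments and none reached 2-fold. The calls rested on how the fit was built. Leaving the experiment out gave 0 calls (116 at unadjusted p under 0.05), and a fit to all 14 arrays gave 0 with the block (287) and 0 without (58); averaging probe sets or cyclic loess also gave 0 (1099 and 1318), and reference-gene scaling 22. Leaving out 1 array moved the count as well. No gene of the 42 changed direction under these settings. They were picked on these same arrays and had 1 sign in both experiments, so a reversal could hardly occur and its absence is no support.

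The 9 genes lower in CLIK148 than in CA074Me were led by Gclm and held 6 members of the glutathione, thioredoxin and NRF2-linked lists. Gclm (chromosome 3), the gene of the modifier subunit of glutamate-cysteine ligase, which makes the glutathione precursor, was at 11.56 and 11.41 in DMSO, 11.53 and 11.42 in CLIK148, and 12.78 and 11.90 in CA074Me. The 4 solvent and CLIK148 arrays lay together, under both CA074Me arrays. CLIK148 minus CA074Me was -0.86 ± 0.14 log2 (SE, limma adjusted p = 0.0332), a 1.82-fold lower level, and -1.25 and -0.47 in the 2 experiments. Gclc, its catalytic partner, was at 9.51 and 9.57 in DMSO, 9.56 and 9.63 in CLIK148, and 10.30 and 9.94 in CA074Me (adjusted p = 0.0427). Txnrd1, the thioredoxin reductase gene, was at 12.27 and 11.84 in DMSO, 12.25 and 11.91 in CLIK148, and 12.91 and 12.24 in CA074Me (adjusted p = 0.0282). For these genes CLIK148 sat at the solvent level, with intervals of CLIK148 minus solvent from -0.32 to 0.30, -0.15 to 0.26 and -0.15 to 0.19. The spread behind these intervals also drew on the CA074Me arrays.

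Hmox1 was -0.51 log2 and Blvrb, a biliverdin reductase gene, -0.54 in CLIK148 relative to CA074Me (adjusted p = 0.0182 for both). Abcc1, which encodes an exporter of glutathione conjugates, differed by -0.43 (adjusted p = 0.0349). Lipa, the lysosomal acid lipase gene, was at 11.97 and 11.19 in DMSO, 11.83 and 11.12 in CLIK148, and 12.64 and 11.55 in CA074Me. It was the 1 called member of the lysosome list (-0.63, adjusted p = 0.0182). The other 2 were Cxcl5, a neutrophil chemokine gene, and Cdkn2b, a cell cycle inhibitor gene. Over the lists, 3 of 21 glutathione and thioredoxin genes and 3 of 24 NRF2-linked genes were called lower, beside 0.0739% of all tested genes, with medians of -0.128 and -0.098 beside 0.0099 over all genes. Srxn1 (-0.76), Slc7a11 (-0.40) and Nqo1 (-0.50) had adjusted p values of 0.0762, 0.0762 and 0.239.

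Promoters of Gclm and Txnrd1 are shown because, of the 6 list members called lower, only these and Blvrb had an entry in the promoter table, and these 2 held a match. Each is 300 bases of RefSeq sequence, build GRCm38.p6, from 250 before to 50 after a start site, read along the gene, with the core of the antioxidant response element in capitals. The core, TGACNNNGC, was searched on both strands, and in each of the 2 windows it lies on the opposite strand. Gclm is at chr3:122245307-122245606 and Txnrd1, of whose 3 start sites in the table this was the 1 with a match, at chr10:82858956-82859255, both on the plus strand.
Gclm: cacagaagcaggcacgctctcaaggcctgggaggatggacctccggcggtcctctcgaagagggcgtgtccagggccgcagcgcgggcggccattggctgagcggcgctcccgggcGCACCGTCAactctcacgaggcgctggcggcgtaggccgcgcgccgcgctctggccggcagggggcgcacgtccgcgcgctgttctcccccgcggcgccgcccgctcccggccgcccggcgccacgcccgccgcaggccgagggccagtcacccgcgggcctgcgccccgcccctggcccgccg
Txnrd1: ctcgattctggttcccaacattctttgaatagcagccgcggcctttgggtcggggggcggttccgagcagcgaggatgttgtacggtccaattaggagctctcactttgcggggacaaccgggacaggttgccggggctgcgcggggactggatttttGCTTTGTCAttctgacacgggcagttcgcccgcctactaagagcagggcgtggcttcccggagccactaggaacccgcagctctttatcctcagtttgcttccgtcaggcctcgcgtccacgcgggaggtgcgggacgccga
Of all 32851 promoter windows 12.4% held the core. Neither match overlapped an AP-1 site, and the 2 Blvrb windows in the table held none, which says only that these letters are not in those windows.

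The 33 genes higher in CLIK148 than in CA074Me were led by Selenbp1 and Mgarp. Mgarp, which encodes a mitochondrial protein, was at 9.38 and 9.90 in DMSO, 9.36 and 9.95 in CLIK148, and 8.57 and 9.50 in CA074Me (0.62 ± 0.09 log2, limma adjusted p = 0.0182). Selenbp1, a selenium-binding protein gene, was at 11.61 and 11.83 in DMSO, 11.38 and 11.79 in CLIK148, and 10.73 and 11.21 in CA074Me (0.62, adjusted p = 0.0182). In both genes the CA074Me array was the lowest of the unstimulated arrays of its experiment. Arg1, the arginase gene of alternatively activated myeloid cells, differed by 0.57 (adjusted p = 0.0396), Ackr3, an atypical chemokine receptor gene, by 0.56, and Slfn4, an interferon-inducible schlafen gene, by 0.55. Vegfa, a vascular growth factor gene, Ddit4, whose product restrains mTORC1, and Hilpda, a lipid droplet gene, differed by 0.52, 0.51 and 0.45.

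Among 20 tested glycolysis and hypoxia genes 2 were called higher, Ankrd37 and Pdk1, beside 0.271% of all tested genes, and the list median of CLIK148 minus CA074Me was 0.232 log2 beside 0.0099 over all genes. Ankrd37, a HIF-1 target gene, was at 10.71 and 10.93 in DMSO, 10.80 and 11.01 in CLIK148, and 10.14 and 10.63 in CA074Me. Pdk1, the gene of a kinase that closes pyruvate dehydrogenase, was at 10.86 and 10.83 in DMSO, 10.99 and 10.92 in CLIK148, and 10.35 and 10.54 in CA074Me. For both, CLIK148 was within 0.13 log2 of solvent in each experiment. Cxcl10 and Cxcl11, genes of CXCR3 ligands, differed by 0.43 and 0.48 (adjusted p = 0.0349 and 0.0282), and Abca1, the cholesterol efflux pump gene, by 0.40. Cholesterol synthesis genes had a median of 0.252, and 0 were called.

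The Ankrd37 promoter is shown because, of the 2 called members of the hypoxia list, it held the more matches to the hypoxia response core. The core was searched as ACGTG and GCGTG on both strands, and 4 matches, of which 2 overlap, are in capitals. This window is RefSeq sequence of build GRCm38.p6 at chr8:45999801-46000100 on the minus strand, read along the gene. The core is short, and 43.8% of all 32851 windows held it.
Ankrd37: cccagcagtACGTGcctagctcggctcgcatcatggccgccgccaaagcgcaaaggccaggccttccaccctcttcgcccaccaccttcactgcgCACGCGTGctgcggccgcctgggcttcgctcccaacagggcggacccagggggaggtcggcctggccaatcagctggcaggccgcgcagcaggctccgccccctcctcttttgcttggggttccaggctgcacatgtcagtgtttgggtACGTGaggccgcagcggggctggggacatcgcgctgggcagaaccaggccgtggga
Both called members of the hypoxia list, Ankrd37 and Pdk1, held at least 1 match.

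For all 42 genes CA074Me was further from solvent than CLIK148 was, in comparisons that share the DMSO arrays. CLIK148 minus solvent ran from -0.136 (Selenbp1) to 0.163 (Hacd1) and CA074Me minus solvent from -0.758 (Selenbp1) to 0.850 (Gclm). Of the 42, 2 had an unadjusted p under 0.05 for CLIK148 against solvent, Hacd1 and Spin4, and in these the inhibitors lay on opposite sides of solvent. Hacd1 was at 0.16 for CLIK148 and -0.23 for CA074Me, and Spin4 at 0.15 and -0.23. Both were named after their values were seen. The widest interval bounds of CLIK148 minus solvent were -0.350 and 0.351. Because the same DMSO arrays enter both differences, the direct comparison of the inhibitors is the test, and its dependence on the fit is given above.

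**Figure D4:**
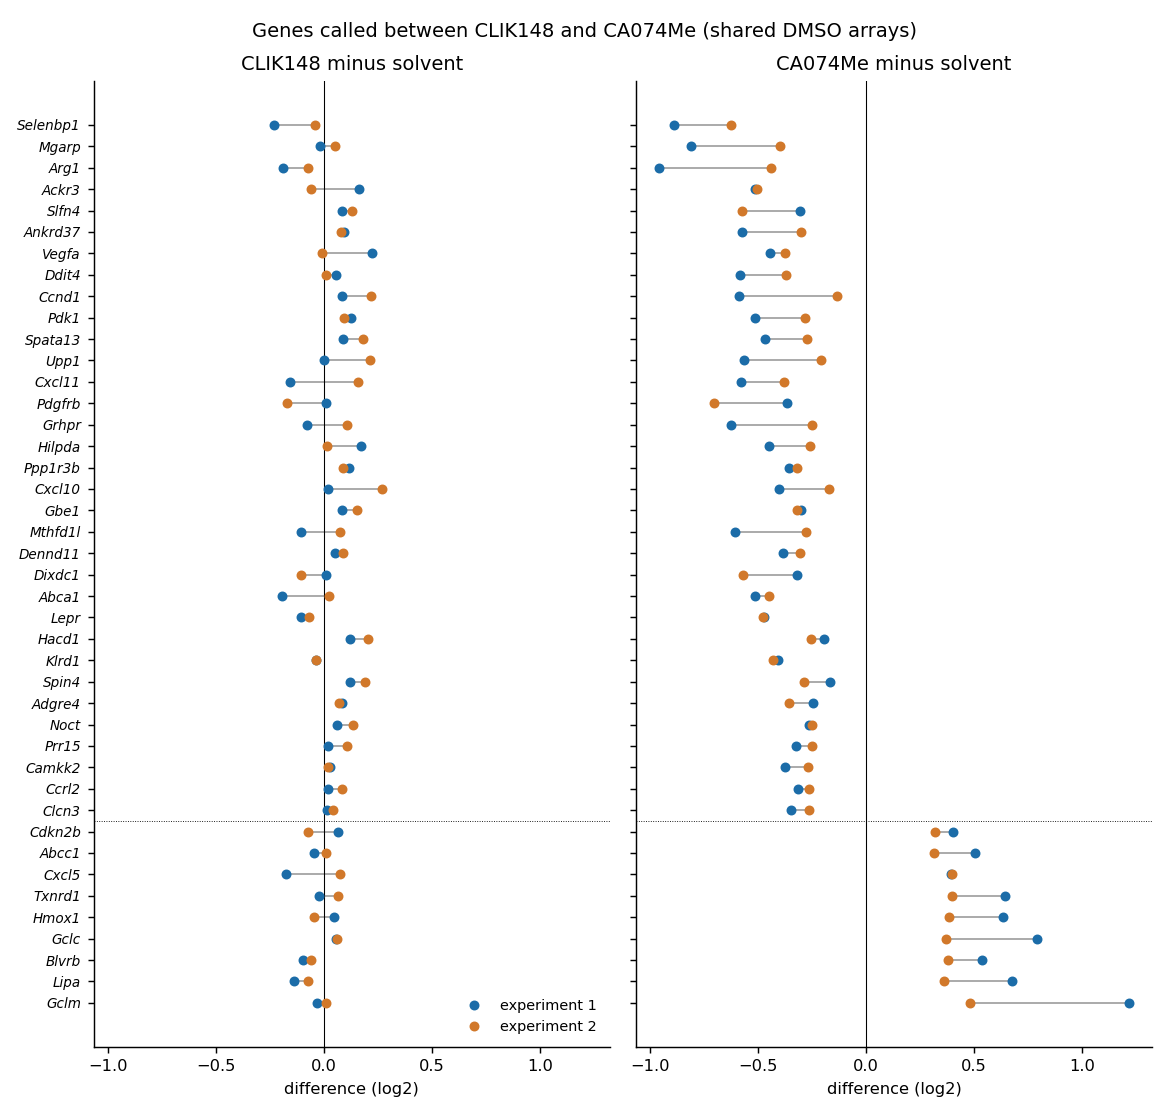
The 42 genes called between CLIK148 and CA074Me, with the log2 difference of CLIK148 minus solvent (left) and CA074Me minus solvent (right) in experiment 1 (blue) and experiment 2 (orange); genes above the dotted line were higher in CLIK148. On the left the points lie around 0, and on the right they lie below 0 for the upper 33 genes and above 0 for the lower 9, with both panels using the same DMSO arrays.

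Under CpG the inhibitor was measured again in separate cultures. CpG is a ligand of Toll-like receptor 9, and 0 of 12172 genes (0%) passed in limma for CLIK148 plus CpG against DMSO plus CpG (116 at unadjusted p under 0.05). Intervals were wider there, with a median of 0.228 log2 to either side, and 11179 lay inside 1.5-fold. That fit took the same shift between experiments for every group, with or without CpG. A CpG response that differed in size between experiments therefore widened the intervals. Tnf had an SE of 0.49 log2 there, with differences of -0.32 and -0.21 in the 2 experiments. The 2 experiments correlated with r = -0.0508 across genes. Il12b was at 14.61 and 13.75 in DMSO plus CpG and 14.54 and 13.62 with CLIK148, Il6 at 14.15 and 12.78 and at 13.85 and 12.65, and Tnf at 13.32 and 10.78 and at 13.00 and 10.57. All 3 were lower with CLIK148 in both experiments, by 0.07 to 0.32 log2, and none passed. Ctsl was at 13.51 and 13.66 in DMSO plus CpG and 13.41 and 13.70 with CLIK148.

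List medians under CpG were mostly below 0. Of 24 maturation and costimulation genes 18 were below 0 in both experiments and 0 above (median -0.119). Of 20 NF-kB targets 17 were below and 0 above (-0.135), beside a median of -0.0296 over all genes. The share of all tested genes below 0 in both was not counted under CpG. The CpG counts of this paragraph therefore have no background and do not show a fall particular to these lists. Of 21 unfolded protein genes 12 were below and 0 above, and of 28 ATF4 genes 14 below and 4 above. Of 21 glutathione and thioredoxin genes 2 were below and 4 above. Cd40 was at 14.05 and 12.79 in DMSO plus CpG and 13.69 and 12.74 with CLIK148. Without stimulus 9 of the 24 maturation genes and 3 of the 20 NF-kB targets had been below 0 in both, beside 29.7% of all genes. The difference between the CLIK148 effect under CpG and without stimulus was tested by an interaction term in the same limma fit. There 0 genes (0%) passed (27 at unadjusted p under 0.05), with a median interval of 0.322 log2 to either side. These intervals were widened in the same way, so 0 calls do not show that the effects were equal. The interaction value of Cd40 was -0.31 and that of Tnf -0.30. Among the genes with the largest interaction values of 1 sign in both experiments were Pvr, a nectin-like receptor gene (-0.49), Ccser2 (-0.38) and Nts (-0.35) on the low side, and Ttc28 (0.36), Krt33b (0.33) and Zfp763 (0.31) on the high side.

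The genes picked without stimulus did not keep their sign under CpG as a group. Of the 12 high genes 2 were above 0 in both CpG experiments (Clec1b and Pik3cd), 2 below in both (Spring1 and Ppp2r5e) and 8 of opposite sign. Tnnt2 was at 8.99 and 8.92 in DMSO plus CpG and at 9.43 and 8.47 with CLIK148. Of the 12 low genes 3 were below 0 in both (Ttll3, Kat6a and ND5), 0 above and 9 of opposite sign. Fn1 was at 12.76 and 8.92 in DMSO plus CpG and 12.80 and 8.87 with CLIK148. The medians of the 12 high and the 12 low genes under CpG were -0.033 and -0.027, both near the -0.0296 of all genes. Over all tested genes, which are not independent of each other, the mean differences without stimulus and under CpG correlated with r = 0.185. What lay behind that correlation was not tested.

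**Figure D5:**
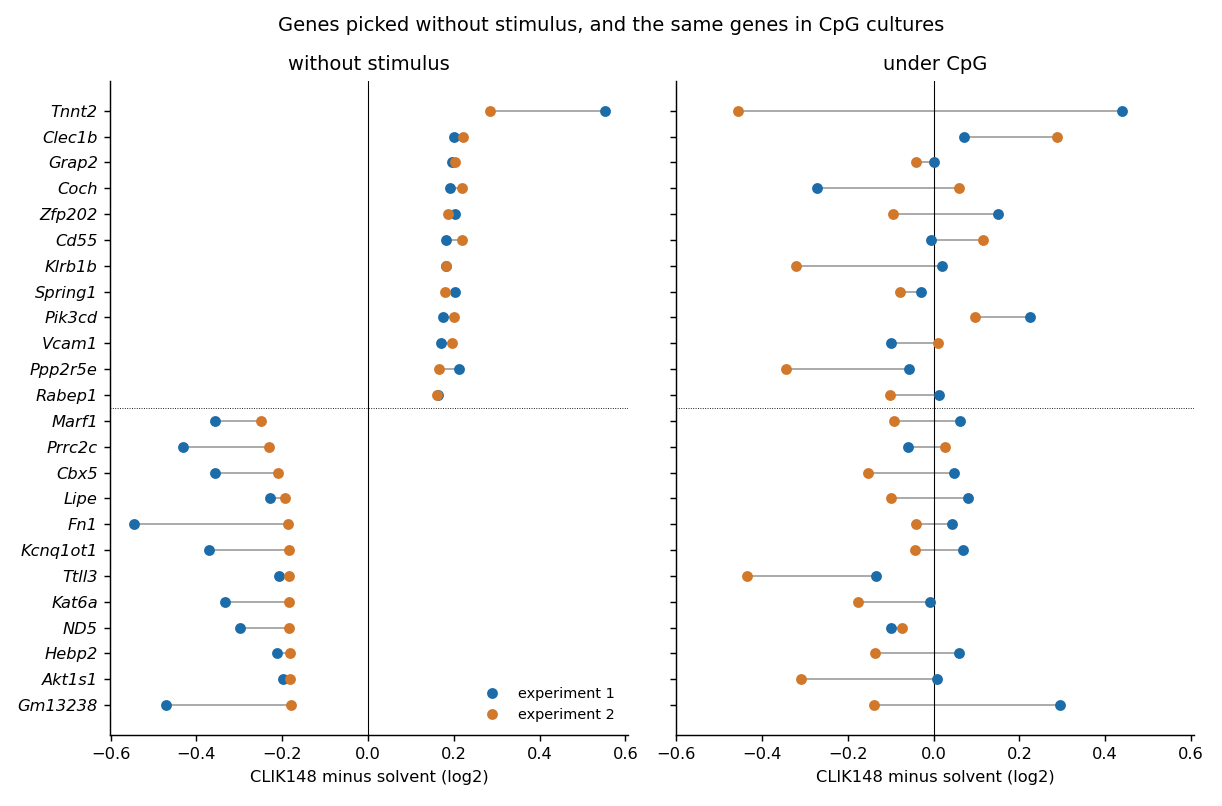
CLIK148 minus solvent (log2) in experiment 1 (blue) and experiment 2 (orange) for the 12 high and 12 low genes picked without stimulus (left), and for the same genes in separate CpG cultures (right). On the left the sign is fixed by how the genes were picked, and on the right the points scatter on both sides of 0.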

How the data were processed

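The authors deposited log2 values for 45101 probe sets on 14 Affymetrix mouse arrays; they were made with RMA (robust multi-array average, a method that summarises the probes of each probe set) in R 3.0.1, per the submitters' processing notes, which as used here give no RMA settings.

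For each of 18193 genes named by 1 annotation entry the brightest probe set stood for the gene. A gene was tested if it exceeded the median of all values, 7.52, on at least 2 arrays, which left 12172. Probe sets with several genes (932) or none (9160) were left out. CLIK148, DMSO and CA074Me without stimulus (6 arrays) entered 1 limma 3.58.1 fit in R 4.3.3, with group and experiment as terms, moderated standard errors, 2-sided tests and Benjamini-Hochberg adjustment over all tested genes. It had 2 residual degrees of freedom, to which the moderation added 9.63. CpG comparisons used 8 arrays in the same way. With 2 arrays per group their number limits the precision. The p values rest on how far the differences between groups disagreed between 2 experiments, over all groups in the fit. That spread was moderated by a spread pooled over genes.

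Replicate numbers pair the arrays: the change from experiment 1 to 2 correlated between DMSO and CLIK148 with r = 0.915, and over all 21 pairs of groups with r from 0.455 to 0.935.

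Members and 36 gene lists (677 symbols, from general knowledge) were chosen with earlier results of these data known. The genes named are the 12 highest and 12 lowest by the smaller of their 2 within-experiment changes, list members furthest from 0, 25 genes tied to the inhibitors, cytokines and NRF2, the 5 called genes furthest from 0 in each direction between the inhibitors, and 3 interaction values in each direction. Other genes named were chosen after their values were seen. Promoter windows are from RefSeq, build GRCm38.p6.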

Additional observations from a re-analysis of the deposited data

Results flagged for a closer look

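The erythroid and stromal markers were singled out because their median moved one way without stimulus and the other way under CpG in both experiments. CLIK148 minus solvent had a median of -0.0327 log2 over the 4 tested markers without stimulus (-0.099 and -0.004 by experiment) and of 0.024 under CpG (0.016 and 0.028). The difference between the 2 settings was not tested. No marker of the list passed against solvent, and 7 of the 11 on the array, Hba-a1 and Alas2 among them, were too dim to test.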

How the results depend on the processing

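For CLIK148 against solvent 0 genes were called in 16 of 18 alternatives, with 12 to 891 genes at unadjusted p under 0.05 over all 18. The exceptions were 22 with a replicate block and the 4 compared arrays alone, and 7 without CLIK148 replicate 2, so that leaving out 1 array gave 0 to 7. Replicate numbers were paired in the fit, and with no replicate block on the same arrays the count was 0 (15 at unadjusted p under 0.05). For CLIK148 against CA074Me the 42 calls became 0 with no replicate block (same arrays or all 14), 0 with a replicate block on all 14 arrays, 0 with averaged probe sets, 0 with cyclic loess, 22 with reference-gene scaling and 168 with the 4 compared arrays alone, and ran from 5 (without CLIK148 replicate 1) to 721 (without CA074Me replicate 2). The 5 other alternatives gave 28 to 54. Without CLIK148 replicate 1 only 3 of the 42 were still called, and without CLIK148 replicate 2 there were 49 calls with 21 of the 42 among them. No gene of the 42 changed direction in these alternatives, of which averaged probe sets held 41. That is no support for the calls, since the 42 were picked on these same arrays. Under CpG and for the interaction, 13 and 17 alternatives all gave 0 calls in limma. Intervals of CLIK148 minus solvent inside 1.5-fold numbered from 9683 to 18190 with the genes each alternative tested. Reference-gene scaling and cyclic loess moved the median of all genes from -0.0137 to -0.0051 and -0.00076. The causes of these changes were not tested. With 2 arrays per group the intervals reached a median of 0.141 log2 to either side, and 0 calls do not show that no gene changed.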
